A study of Mus musculus with 4 samples.

Results

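The chaperone genes of the cytosol and of mitochondria were examined in mouse lung group 2 innate lymphoid cells (ILC2s). Members were the rows of the deposited FPKM tables with a symbol of the HSP70 and HSP110 (Hspa and Hsph), HSP90 (Hsp90a), small heat shock protein (Hspb), HSP60 and HSP10 (Hspd and Hspe), J-domain (Dnaja, Dnajb and Dnajc) or CCT families, together with Tcp1 and Hsf1. The endoplasmic reticulum members Hspa5, Hspa13, Dnajb9, Dnajb11, Dnajc3 and Dnajc10 were left out. The rule found 73 of the 55401 gene models, 39 of them J-domain genes. It chose genes by symbol, not by measured values. FPKM are fragments scaled by gene length and by the number of mapped fragments. One group was ILC2s of C57BL/6 mice given IL-33 plus angiotensin II (Ang II) for 6 h, and it was set against ILC2s given IL-33 alone for 6 h, so IL-33, an alarmin that activates ILC2s, was present in every culture. Ang II is the peptide hormone through which the renin-angiotensin system raises blood pressure. Each group has 2 libraries, each from 500 cells and amplified cDNA, and there is no library of unstimulated cells. The labels do not give the age of the mice or say whether libraries came from separate mice or cultures.

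Chaperones bind unfolded or newly made proteins and help them fold. HSP70 works in cycles of ATP hydrolysis that J-domain proteins start and nucleotide exchange factors such as the HSP110 proteins end, and it passes some clients on to HSP90, which matures kinases and receptors. CCT, also called TRiC, is a ring-shaped chaperonin that folds actin and tubulin, while HSP60 with its lid HSP10, and mitochondrial HSP70, fold proteins imported into mitochondria. When unfolded proteins build up, the transcription factor HSF1 binds heat shock elements, inverted repeats of the letters GAA, and switches on inducible members such as Hspa1a, Hspa1b and Dnajb1, while Hspa8 and Hsp90ab1 are made all the time.

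Before groups were compared, the libraries of each group were set against each other. Depth is not given with FPKM and was estimated from how often low genes were listed at 0 in only 1 library of a pair. In the IL-33 pair the typical gene differed by 1.15 times the counting noise at that depth, although 6.41% of 3918 genes lay beyond 3 SDs of it. The Ang II pair differed by 14.7 times the noise at the IL-33 depth. At the lower depth estimated in the same way from the Ang II pair itself, it differed by 3.89 times the noise. The estimate takes each gene to have the same level in both libraries of a pair. Other differences between the Ang II libraries lower that depth, so ratios at it may be too low. Taken as a root mean square over genes, which extreme genes weigh on, the ratio at its own depth was 4.71 for the Ang II pair and 2.34 for the IL-33 pair. Since the typical gene differed between IL-33 libraries by about the sampling noise, their mean entered the comparisons as 1 sample. ILC2 identity was read from 14 markers. Of these, 13 were at 1 FPKM or more in every library (Gata3 was at 185 and 130 FPKM in Ang II libraries, against 104 and 108 FPKM in IL-33 libraries), while Thy1 stood below 0.1 FPKM in all of them. Markers of other cells moved with the groups. Of 5 red blood cell markers, 5 were lower in both Ang II libraries, summing to 3831 and 1591 FPKM there and to 25146 and 24943 FPKM in IL-33 libraries. Of 9 T cell markers, 8 were lower in both, summing to 845 and 439 FPKM in Ang II libraries and to 1167 and 1170 FPKM in IL-33 libraries. Cd4 had 0 FPKM in each Ang II library, against 6.32 and 6.92 FPKM in IL-33 libraries. Of 6 epithelial markers, 4 were lower in both, summing to 80.1 and 189 FPKM in Ang II libraries and to 366 and 356 FPKM in IL-33 libraries. Neutrophil markers were lower too, 3 of 3 tested. Their list summed to 61.9 and 38.6 FPKM in Ang II libraries and to 208 and 201 FPKM in IL-33 libraries. Of 5 macrophage markers tested, 3 were lower in both, Marco was higher and Chil3 overlapped. Marco stood at 191 and 23.2 FPKM in Ang II libraries, against 0 FPKM in both IL-33 libraries. Chil3 stood at 696 and 158 FPKM with Ang II and at 212 and 210 FPKM with IL-33. The neutrophil gene Retnlg counts by a small margin, at 3.01 and 2.65 FPKM with Ang II and 3.02 and 3.20 FPKM with IL-33. Tested markers numbered 8 for T cells and 4 for epithelium. Of all genes tested, 33.5% were lower in both Ang II libraries and 24.4% higher. The NK cell markers Ncr1 and Klrb1c, the epithelial Krt8 and Krt18 and the endothelial Cdh5 were listed at 0 in all libraries. Other genes of those lists were not. Of 3 endothelial and stromal markers tested, 1 was lower in both Ang II libraries and 2 overlapped. The lower one, Cldn5, was at 0.05 and 0 FPKM in Ang II libraries, against 29.56 and 29.25 FPKM in IL-33 libraries. Pecam1 was at 0.11 and 9.08 FPKM with Ang II and 1.14 and 1.15 FPKM with IL-33. Col1a1 was at 1.26 and 1.23 FPKM with Ang II and 1.62 and 1.21 FPKM with IL-33. Gzma, of the NK list, was at 0.07 and 13.3 FPKM in Ang II libraries, against 0.17 and 0 FPKM in IL-33 libraries. The B cell gene Cd79b overlapped, at 50.5 and 0.28 FPKM with Ang II and 14.6 and 11.9 FPKM with IL-33. The part of these cells in the chaperone values was not tested. In such bulk samples, fewer cells of a type and less RNA per cell cannot be told apart.

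The chaperone genes as a whole took a small and similar share of the FPKM in all libraries. Their summed level was 2534 and 2685 FPKM in the Ang II libraries, against 2399 and 2379 FPKM in the IL-33 libraries. This was 0.595% and 0.680% of all FPKM in Ang II libraries and 0.557% and 0.552% in IL-33 libraries. In FPKM as deposited, both Ang II sums lay above both IL-33 sums, by 1.09-fold on average. Median-ratio scaling divided the libraries by 1.07 and 0.992 with Ang II and by 0.984 and 0.985 with IL-33. On that scale, Ang II library 1 fell below both IL-33 libraries in this sum. Its HSP90 sum and its HSP70 and HSP110 sum did so too. No test was made of sums, since the members share their libraries. Hspa8 was the most abundant member in every library and alone gave 27.9% and 25.5% of the sum in Ang II libraries, against 25.9% and 26.2% in IL-33 libraries. At 1 FPKM or more there were 31 and 42 members in the Ang II libraries, against 39 and 38 in the IL-33 libraries. By group of genes, the sum of the mitochondrial chaperones was lower in both Ang II libraries. It was 60.2 and 81.2 FPKM in Ang II libraries, against 139.2 and 138.8 FPKM in IL-33 libraries. The sums of the HSP90 genes and of the matched CCT genes were higher in both Ang II libraries. The CCT sum leaves out the subunit gene Cct6a, which the rule does not match. With Cct6a added, Ang II library 2 fell below both IL-33 libraries in that sum. The sum of the HSP70 and HSP110 genes was higher in both Ang II libraries, but not without Hspa8. Without it that sum was 87.6 and 125 FPKM in Ang II libraries, against 131 and 130.3 FPKM in IL-33 libraries, lower in both. That in turn rested on Hspa4, at 34.0 and 35.9 FPKM in Ang II libraries, against 90.3 and 90.2 FPKM in IL-33 libraries. With Hspa8 and Hspa4 both left out, the sum was higher in both Ang II libraries.

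**Figure D1:**
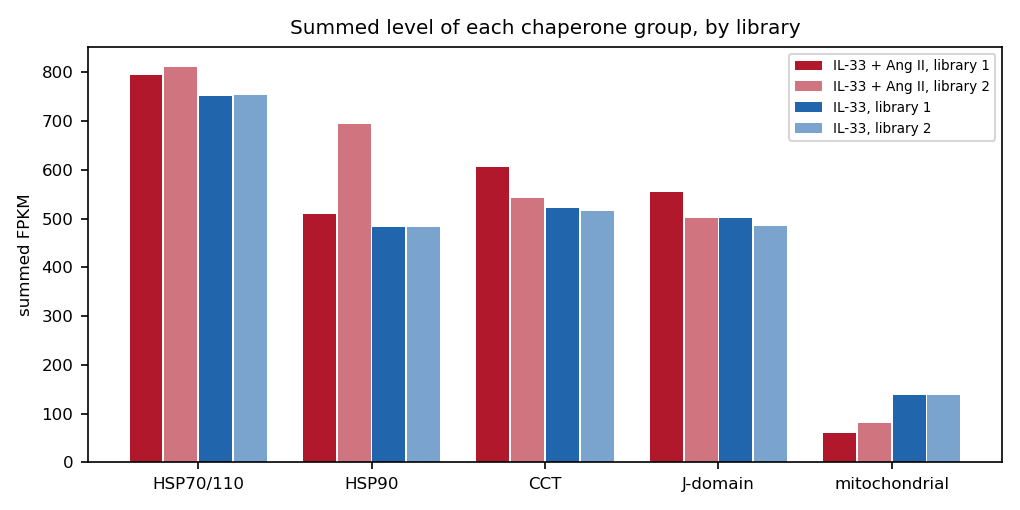
Summed FPKM (vertical axis, from 0) of 5 groups of chaperone genes, one bar per library, with IL-33 plus Ang II in red and IL-33 in blue. The mitochondrial group has its Ang II bars (60.2 and 81.2 FPKM) below the IL-33 bars (139.2 and 138.8 FPKM), and the HSP70 and HSP110 bars consist mostly of Hspa8.

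Of the 73 members, 47 had a mean of at least 1 FPKM and were tested with limma on log2(FPKM + 1). Fold changes below are on that scale and are understated for low genes, with IL-33 counted as n = 1 and Ang II as n = 2. No member passed an adjusted p of 0.05 in either direction, and 0% of the 9215 genes tested passed (limma, Benjamini-Hochberg). The smallest adjusted p among members was 0.174 by limma. At an unadjusted p under 0.05 by limma there were 0 members higher and 2 lower with Ang II, against 2.79% and 10.8% of all genes tested. Of the 47 members, 15 stood above and 15 below both IL-33 values in each Ang II library, and in 17 the groups overlapped. That is 31.9% in each direction, against 24.4% of all genes tested for higher and 33.5% for lower. At least 1.5-fold outside both IL-33 values were 8 members above and 12 below, against 16.2% and 22.7% of all genes tested, and the 8 include Dnajc2, which was at 0.02 FPKM against 0.01 FPKM in Ang II library 1. The minimum level admits a low gene more easily when 1 group is high, so these counts describe the members tested and not all members. The median log2 fold change was -0.13 for the members and -0.0037 for all genes tested. Set against the IL-33 mean, the members' median was -0.058 in Ang II library 1 and 0.14 in Ang II library 2. The sign differed between the libraries over these 47 members. With the minimum level set on library 1 and IL-33 alone, the median of library 1 was 0.065, so its sign turns with the members admitted. With the IL-33 libraries counted as replicates instead, limma called 4 members higher (Hspa1a, Hspa1b, Dnajc5 and Dnajc19) and 3 lower (Hspa4, Dnajb2 and Dnajb13) at adjusted p under 0.05. That fit called 5.34% of all 9095 genes it tested higher and 13% lower, and it takes the IL-33 spread as that of separate samples.

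**Figure D2:**
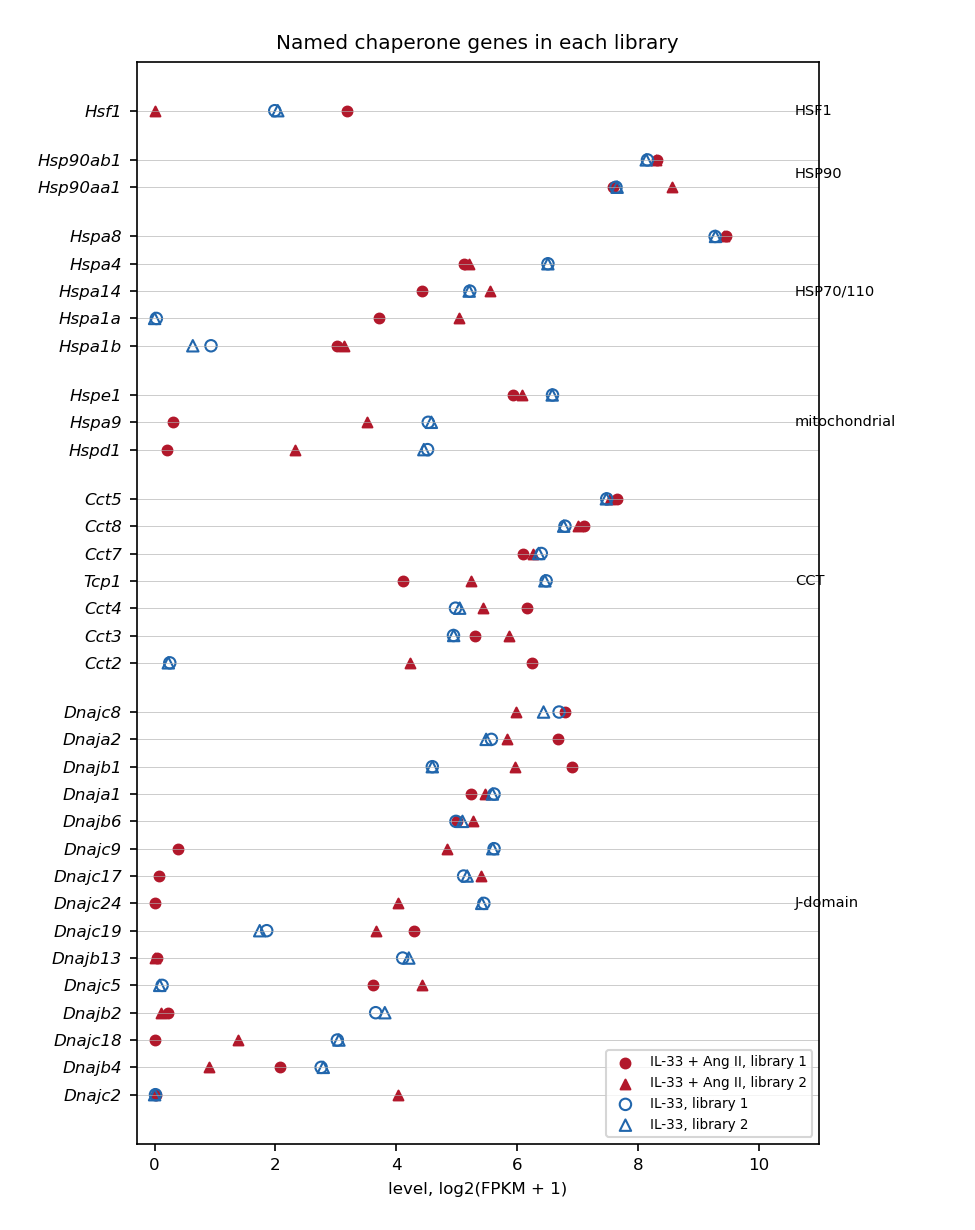
Level of each named chaperone gene in log2(FPKM + 1), grouped by role down the page, with filled red symbols for IL-33 plus Ang II and open blue symbols for IL-33 (circle for library 1, triangle for library 2). The IL-33 symbols nearly coincide for most genes, while the red symbols lie apart for many genes, such as Hsf1 (8.07 and 0 FPKM).

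Hsf1, the gene of the master regulator of the heat shock response, was expressed at a low level and differed more within the Ang II group than between groups. It stood at 8.07 and 0 FPKM in Ang II libraries, against 2.97 and 3.11 FPKM in IL-33 libraries. The Ang II values lay on either side of the IL-33 values, with a log2 fold change of -0.42 (SE 2.11). Its relative Hsf2, which can bind the same elements, stood at 0 and 0.20 FPKM with Ang II and at 4.14 and 4.31 FPKM with IL-33. Hsbp1, whose product binds HSF1 and holds it in check, was at 104 and 122 FPKM with Ang II and at 114 and 119 FPKM with IL-33, so its groups overlapped. Of 5 tested genes of the HSF family and its regulators, both Ang II libraries were higher for 2 and lower for 2. That is 40% in each direction, against 24.4% higher and 33.5% lower of all genes tested.

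The HSP90 genes were among the most abundant members. Hsp90ab1, the form made constantly, stood at 318 and 315 FPKM in Ang II libraries, against 285 and 281 FPKM in IL-33 libraries (log2 fold change 0.16, SE 0.16). Both Ang II values were above both IL-33 values, by about the size of the standard error. Hsp90aa1, the stress-inducible form, stood at 192 and 379.7 FPKM in Ang II libraries, against 198 and 201 FPKM in IL-33 libraries (log2 fold change 0.43, SE 0.65). Only Ang II library 2 was high, and library 1 was just below the IL-33 values. Gm12346, which shares more sequence with Hsp90aa1 than any other annotated gene does, was also high in Ang II library 2 only. It stood at 5.58 and 43.0 FPKM in Ang II libraries 1 and 2, against 6.70 and 7.01 FPKM in IL-33 libraries. Of the 50-base words in the longest Hsp90aa1 transcript, 58.5% occur in transcripts of other genes, so reads may have been divided between these copies when they were counted.

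Among HSP70 genes the constitutive member differed little and the inducible members were higher with Ang II. Hspa8, which encodes the constitutive HSC70, stood at 706 and 686 FPKM in Ang II libraries, against 621 and 623 FPKM in IL-33 libraries (log2 fold change 0.16, SE 0.13). The groups did not overlap, and the difference was of the size of its standard error. Of its 50-base words, 51.4% occur in other genes. Hspa1a, which encodes inducible HSP70, stood at 12.2 and 32.04 FPKM in Ang II libraries, against 0.02 and 0 FPKM in IL-33 libraries (log2 fold change 4.37 ± 1.05 SE, limma adjusted p = 0.410). Its neighbour Hspa1b stood at 7.10 and 7.78 FPKM in Ang II libraries, against 0.91 and 0.55 FPKM in IL-33 libraries (log2 fold change 2.29 ± 0.66 SE, limma adjusted p = 0.480). Both genes were near or below 1 FPKM with IL-33 and clearly above it in both Ang II libraries, at a level far below that of Hspa8. They are near-identical copies on chromosome 17 of mm10, Hspa1a at 34969190 to 34972156 and Hspa1b at 34956436 to 34959238, both on the minus strand. Of the 50-base words of Hspa1a, 58.8% occur in Hspa1b, so how reads were split between them is uncertain. The third gene of that cluster, Hspa1l, known from testis, was listed at 0 in all libraries.

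The promoters of these copies are shown because the genes were higher together and HSF1 elements lie upstream of inducible HSP70 genes. RefSeq sequences (GRCm38.p6) run from 250 bases before to 50 bases after the start. Capitals mark inverted repeats of the form GAANNTTC or TTCNNGAA, searched on both strands, which may overlap each other. The windows are chr17:34972107-34972406 for Hspa1a and chr17:34959189-34959488 for Hspa1b, both on the minus strand and written 5′ to 3′.
Hspa1a: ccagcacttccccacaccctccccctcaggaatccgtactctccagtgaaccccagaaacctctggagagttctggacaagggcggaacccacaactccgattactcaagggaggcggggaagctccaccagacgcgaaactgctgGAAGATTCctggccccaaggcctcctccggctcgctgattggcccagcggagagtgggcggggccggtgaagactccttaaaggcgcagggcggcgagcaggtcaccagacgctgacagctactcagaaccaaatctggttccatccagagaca
Hspa1b: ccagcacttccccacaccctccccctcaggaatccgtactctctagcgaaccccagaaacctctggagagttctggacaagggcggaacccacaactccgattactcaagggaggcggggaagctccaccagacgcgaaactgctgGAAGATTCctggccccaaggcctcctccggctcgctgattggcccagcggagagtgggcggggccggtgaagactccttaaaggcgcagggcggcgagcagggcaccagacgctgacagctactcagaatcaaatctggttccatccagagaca
The windows match at 296 of 300 bases, and each holds 1 inverted repeat, GAAGATTC, which starts 104 bases before the start site. The form GAANNTTC occurs in windows of 14 of the 59 members found in that table, which is 23.7% of them, against 9.04% of 27025 genes. The 14 include Hspa1a and Hspa1b with near-identical windows, and Hspd1 and Hspe1 with shared bases, so they are not 14 separate occurrences. The form TTCNNGAA occurs in 6 of the 59, or 10.2%, against 9.60% of genes, which is near the background share. The longer form with 3 units, GAANNTTCNNGAA or TTCNNGAANNTTC, occurs in 4 members (Hspd1, Hspe1, Hsph1 and Dnajb6), or 6.78%, against 0.662% of genes. Hspd1 and Hspe1 share 285 of the 300 bases of their windows, so they are not separate occurrences. Among tested members with a window, it occurs in 0 of 10 that were higher in both Ang II libraries, in 2 of 13 that were lower (Hspd1 and Hspe1) and in 2 of 14 whose groups overlapped. These matches are a description of letters and do not show binding. Members without a window there are Hspa8, Hsp90ab1, Hsp90aa1, Cct4, Hspa9, Dnajc12, Dnajc5, Dnajc18, Dnajc2, Hsf1, Dnajc11, Dnajc30, Hspb2 and Dnajc22.

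HSP110 genes, whose products reset HSP70 by nucleotide exchange, did not share a direction. Hspa4 stood at 34.0 and 35.9 FPKM in Ang II libraries, against 90.3 and 90.2 FPKM in IL-33 libraries (log2 fold change -1.35 ± 0.29 SE, limma adjusted p = 0.375). The libraries of each group nearly coincided, and the Ang II values were below the others by more than the spread within either group. Hsph1, which encodes HSP105 and was chosen after its values were seen, stood at 13.0 and 3.47 FPKM in Ang II libraries, against 3.90 and 3.51 FPKM in IL-33 libraries. Only Ang II library 1 was high. Hspa4l was below 1 FPKM in every library. Hspa14, which encodes an HSP70 relative that binds ribosomes, stood at 20.6 and 45.9 FPKM in Ang II libraries, against 36.3 and 36.0 FPKM in IL-33 libraries, and its Ang II values lay on either side of the others. Hspbp1, which encodes another exchange factor and was chosen likewise, was at 0 and 55.1 FPKM in Ang II libraries, against 0 and 0.13 FPKM in IL-33 libraries, so a single library carried it.

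Hspe1, Hspd1 and Hspa9, the 3 genes grouped here as mitochondrial chaperones, were lower in both Ang II libraries, as were 33.5% of all genes tested. Other members that work in mitochondria did otherwise, since Dnajc19 was higher in both and Dnaja3 overlapped (values below). Hspe1, which encodes HSP10, the lid of the chaperonin, stood at 59.9 and 66.7 FPKM in Ang II libraries, against 95.2 and 94.8 FPKM in IL-33 libraries (log2 fold change -0.58 ± 0.27 SE, limma adjusted p = 0.707). Hspd1, which encodes HSP60, stood at 0.15 and 4.02 FPKM in Ang II libraries, against 21.9 and 20.97 FPKM in IL-33 libraries (log2 fold change -3.22 ± 1.51 SE, limma adjusted p = 0.713). Hspa9, which encodes mitochondrial HSP70 (mortalin), stood at 0.23 and 10.48 FPKM in Ang II libraries, against 22.1 and 23.0 FPKM in IL-33 libraries (log2 fold change -2.65 ± 2.16 SE, limma adjusted p = 0.775). None passed the test, and for Hspd1 and Hspa9 the Ang II libraries differed from each other many-fold. The lid gene and the HSP60 gene also differed in level, Hspe1 standing above Hspd1 in every library on this per-length scale. Of the 50-base words of Hspd1, 44.8% occur in other genes. The pseudogene Hspd1-ps3, which shares the most, stood at 0.02 and 0.19 FPKM in Ang II libraries, against 3.89 and 1.67 FPKM in IL-33 libraries.

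Hspd1 and Hspe1 lie head to head on chromosome 1 of mm10, Hspd1 on the minus strand (55077835 to 55088243) and Hspe1 on the plus strand (55088132 to 55091307). Their exons overlap by 112 bases on opposite strands, and the labels do not say whether counting used strand. Their shared promoter is shown because it holds the longer heat shock element while both genes were lower in both Ang II libraries. The window is chr1:55087898-55088197 on the plus strand, and a window of Hspd1 covers 285 of the same bases from the other strand.
Hspe1: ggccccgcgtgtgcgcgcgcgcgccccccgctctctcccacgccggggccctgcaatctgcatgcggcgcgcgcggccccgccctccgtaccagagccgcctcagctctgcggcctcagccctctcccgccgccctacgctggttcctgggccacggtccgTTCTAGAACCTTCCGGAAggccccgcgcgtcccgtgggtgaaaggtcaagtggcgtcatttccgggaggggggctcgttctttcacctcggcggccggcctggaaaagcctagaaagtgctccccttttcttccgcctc
Capitals mark 3 overlapping inverted repeats, which begin 89 bases before the Hspe1 start and together hold both orientations of the longer element.

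All CCT subunit genes but Cct2 were well expressed in every library. Both Ang II libraries were higher for 5 of the 7 subunit genes matched and lower for 2, against 24.4% and 33.5% of all genes tested. This count leaves out Cct6a, a subunit gene that the rule does not match and that was lower in both (values below). Cct5 was the most abundant, at 201 and 184 FPKM in Ang II libraries, against 178 and 178 FPKM in IL-33 libraries (log2 fold change 0.11, SE 0.20). Cct8 stood at 137 and 128 FPKM in Ang II libraries, against 109.97 and 108 FPKM in IL-33 libraries (log2 fold change 0.28, SE 0.22). Neither subunit differed by much more than its standard error. Cct4 stood at 71.1 and 42.3 FPKM in Ang II libraries, against 30.6 and 32.2 FPKM in IL-33 libraries. Cct3 stood at 38.5 and 57.3 FPKM in Ang II libraries, against 29.9 and 29.9 FPKM in IL-33 libraries. Both lay above the IL-33 values in each Ang II library, with log2 fold changes of 0.79 (SE 0.55) and 0.64 (SE 0.47). Cct7 stood at 67.3 and 76.0 FPKM in Ang II libraries, against 83.6 and 81.1 FPKM in IL-33 libraries (log2 fold change -0.20, SE 0.27). Tcp1, the alpha subunit, stood at 16.3 and 36.6 FPKM in Ang II libraries, against 88.4 and 87.1 FPKM in IL-33 libraries (log2 fold change -1.80 ± 0.78 SE, limma adjusted p = 0.681). Its exons overlap those of Acat3 on the opposite strand by 571 bases.

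Cct2, the beta subunit, departed from its partners. It stood at 75.4 and 17.7 FPKM in Ang II libraries, against 0.19 and 0.17 FPKM in IL-33 libraries (log2 fold change 5.00 ± 1.40 SE, limma adjusted p = 0.471). In the IL-33 libraries the highest subunit was 938 and 1044 times the lowest, and without Cct2 that ratio was 5.97 and 5.93. In the Ang II libraries it was 12.3 and 10.4. The subunits are needed together in the ring, and the listed level of Cct2 with IL-33 was far below that of its partners. The IL-33 libraries were counted as 1 sample, so this rests on 1 reading near 0. Of 5150 gene models with at least 10 FPKM in an Ang II library, 31.7% were under 1 FPKM in the other. Whether the IL-33 cells lacked the transcript was not tested. None of the 50-base words of Cct2 occurs in another annotated gene. No other gene overlaps its exons, which lie on chromosome 10 (117051001 to 117063814, minus strand). Cct6a, the zeta subunit, does not match the rule because of its final letter. It stood at 61.5 and 17.4 FPKM in Ang II libraries, against 99.2 and 103.6 FPKM in IL-33 libraries (log2 fold change -1.59, SE 1.17).

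**Figure D3:**
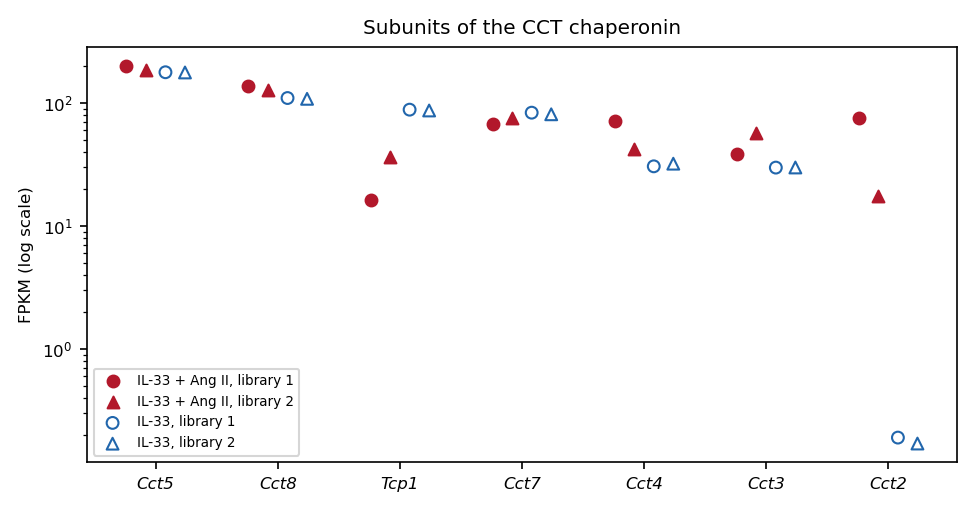
FPKM on a log scale of the 7 matched CCT subunit genes, ordered by their IL-33 mean, with IL-33 plus Ang II in filled red to the left and IL-33 in open blue to the right for each gene. With IL-33 alone, Cct2 lies at 0.19 and 0.17 FPKM, while the other subunits lie at 16.3 FPKM or more in every library.

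J-domain proteins, which deliver clients to HSP70 and start its cycle, were the largest family, with 27 of 39 genes tested. Higher values in both Ang II libraries were found for 6 and lower values for 9, and 12 overlapped. These are 22.2% and 33.3% of the 27, near the 24.4% and 33.5% of all genes tested. Their median log2 fold change was -0.25. Dnajb1, which encodes HSP40, the main partner of inducible HSP70, stood at 120 and 61.2 FPKM in Ang II libraries, against 23.2 and 23.2 FPKM in IL-33 libraries (log2 fold change 1.84 ± 0.67 SE, limma adjusted p = 0.589). Both Ang II values were above the others, and library 1 was well above library 2. Its share of all chaperone FPKM was 4.72% and 2.28% with Ang II and 0.968% and 0.976% with IL-33. Dnaja2, a cytosolic partner of HSC70, stood at 101 and 56.1 FPKM in Ang II libraries, against 46.7 and 43.9 FPKM in IL-33 libraries (log2 fold change 0.72, SE 0.60). Its relative Dnaja1 stood at 36.7 and 43.3 FPKM in Ang II libraries, against 48.2 and 47.2 FPKM in IL-33 libraries (log2 fold change -0.25, SE 0.33). These partners of the same HSP70 thus lay on opposite sides of the IL-33 values, each by about its standard error. Dnajb6, which keeps aggregation-prone proteins soluble, overlapped between groups, at 31.2 and 37.8 FPKM with Ang II and 30.8 and 33.2 FPKM with IL-33.

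Further J-domain genes were low in the IL-33 libraries and higher with Ang II. Dnajc5, which encodes the cysteine string protein of secretory vesicles, stood at 11.2 and 20.6 FPKM in Ang II libraries, against 0.09 and 0.06 FPKM in IL-33 libraries (log2 fold change 3.92 ± 0.83 SE, limma adjusted p = 0.369). Dnajc19, whose product belongs to the mitochondrial import motor, stood at 18.7 and 11.7 FPKM in Ang II libraries, against 2.62 and 2.34 FPKM in IL-33 libraries (log2 fold change 2.19 ± 0.69 SE, limma adjusted p = 0.522). For both genes the gap between groups was wider than the gap within the Ang II pair. The pseudogene Dnajc19-ps, with which Dnajc19 shares 5.43% of its words, stood at 21.7 and 20.5 FPKM with Ang II and at 4.20 and 2.83 FPKM with IL-33. Dnajc2, which encodes a ribosome-associated protein, was at 0.02 and 15.3 FPKM with Ang II and at 0.01 and 0 FPKM with IL-33. It counts as higher in both, but in library 1 by 0.01 FPKM only.

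Among the J-domain genes lower in both Ang II libraries were the members with the smallest p. Dnajb13, which encodes a part of the radial spokes of cilia and sperm tails, stood at 0.03 and 0 FPKM in Ang II libraries, against 16.2 and 17.5 FPKM in IL-33 libraries (log2 fold change -4.14 ± 0.41 SE, limma adjusted p = 0.174). Its exons overlap by 305 bases those of Ucp2 on the opposite strand, and Ucp2 stood at 27.1 and 6.92 FPKM with Ang II and at 11.3 and 12.3 FPKM with IL-33. Dnajb2, which encodes a J-domain protein with ubiquitin-interacting motifs, stood at 0.16 and 0.07 FPKM in Ang II libraries, against 11.6 and 13.0 FPKM in IL-33 libraries (log2 fold change -3.58 ± 0.40 SE, limma adjusted p = 0.176). In these genes both Ang II libraries were near 0, so the difference within the Ang II pair was small on the log scale. Dnajb4, a close relative of Dnajb1, stood at 3.20 and 0.87 FPKM in Ang II libraries, against 5.76 and 5.93 FPKM in IL-33 libraries. Dnajc18 stood at 0 and 1.59 FPKM in Ang II libraries, against 7.14 and 7.29 FPKM in IL-33 libraries. Both were below the IL-33 values in each library, with log2 fold changes of -1.29 (SE 0.96) and -2.35 (SE 0.99).

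**Figure D4:**
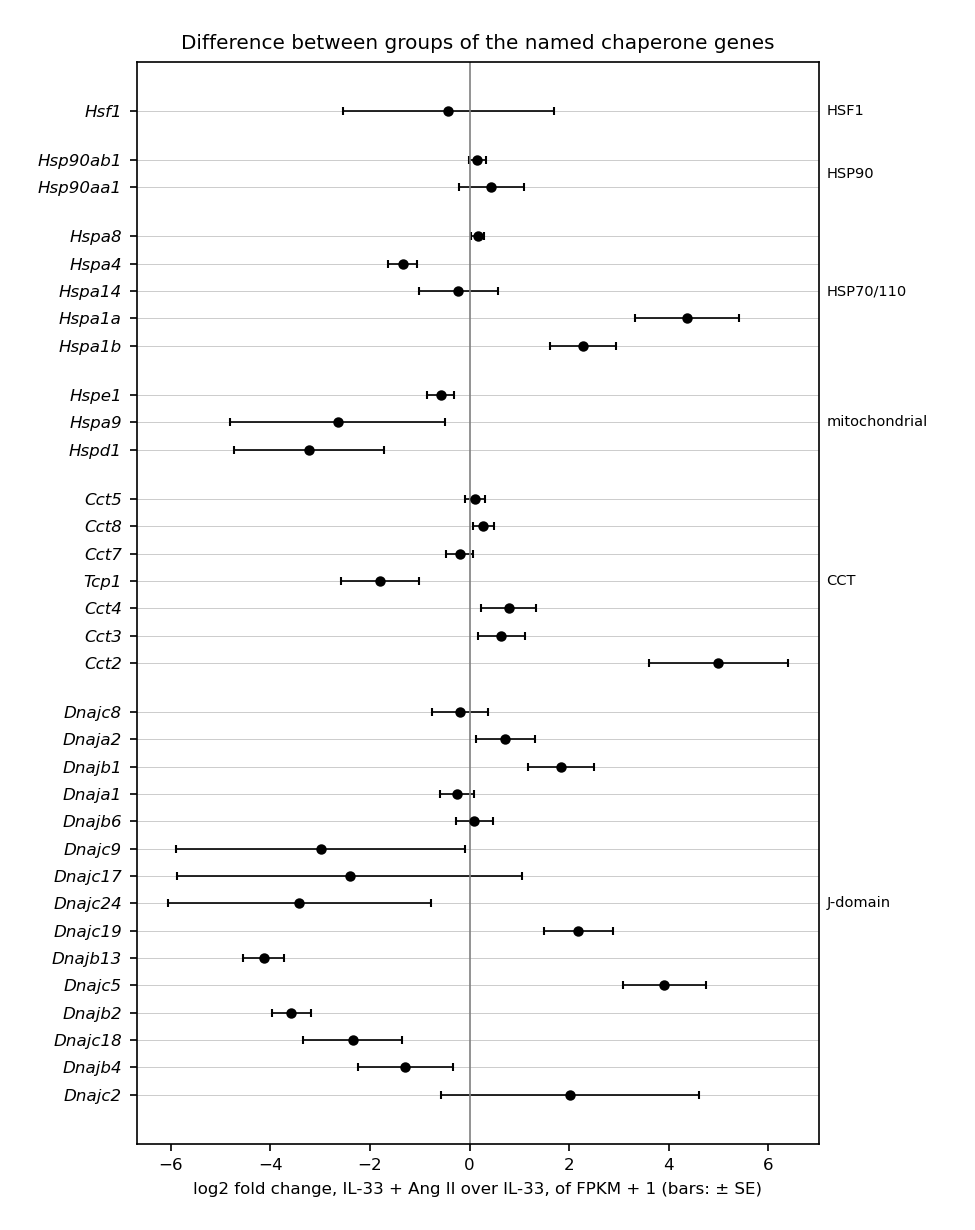
Log2 fold change of each named chaperone gene, IL-33 plus Ang II over IL-33, on the log2(FPKM + 1) scale, with bars of 1 SE from limma. The narrow bars near 0 belong to abundant genes such as Hspa8 (0.16, SE 0.13), and the wide ones to genes that differed between the Ang II libraries, such as Dnajc9 (-2.99, SE 2.90).

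Several J-domain genes were near 0 in Ang II library 1 and well above it in library 2. Dnajc9, which encodes a histone chaperone, stood at 0.31 and 27.7 FPKM in Ang II libraries, against 48.2 and 47.5 FPKM in IL-33 libraries. Dnajc24, whose product serves diphthamide synthesis, stood at 0 and 15.4 FPKM in Ang II libraries, against 42.8 and 41.7 FPKM in IL-33 libraries. Dnajc17, linked to RNA splicing, stood at 0.05 and 41.5 FPKM in Ang II libraries, against 33.7 and 35.1 FPKM in IL-33 libraries. In each the Ang II libraries differed far more than the IL-33 libraries, and for Dnajc17 the groups overlapped. Dnajc8, a spliceosome-associated member, was steadier, at 109.6 and 62.5 FPKM with Ang II and 103 and 85.8 FPKM with IL-33. Of 35 members with at least 10 FPKM in an Ang II library, 10 (28.6%) were under 1 FPKM in the other, against 31.7% of 5150 gene models. The low library was Ang II library 1 for 9 of the 10 members and for 64.8% of the 1635 gene models. In the IL-33 pair 0 of 28 members and 0.142% of 4230 gene models were split this way. Besides those named above (Dnajc2, Dnajc9, Dnajc17, Dnajc24, Hspa9 and Hspbp1), the 10 were Dnaja3, Dnajc7, Dnajc12 and Dnajc21, listed here after their values were seen. Dnaja3, whose product works with HSP70 in mitochondria, was the member low in library 2, at 45.7 and 0.06 FPKM with Ang II and 14.2 and 13.7 FPKM with IL-33. Over the 47 tested members the median gap between the 2 libraries of a group was 1.12 on the log2 scale with Ang II and 0.036 with IL-33. The IL-33 libraries differed by about the sampling noise for the typical gene and may not be separate samples. Their splits and their gap therefore do not measure the spread between IL-33 samples.

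**Figure D5:**
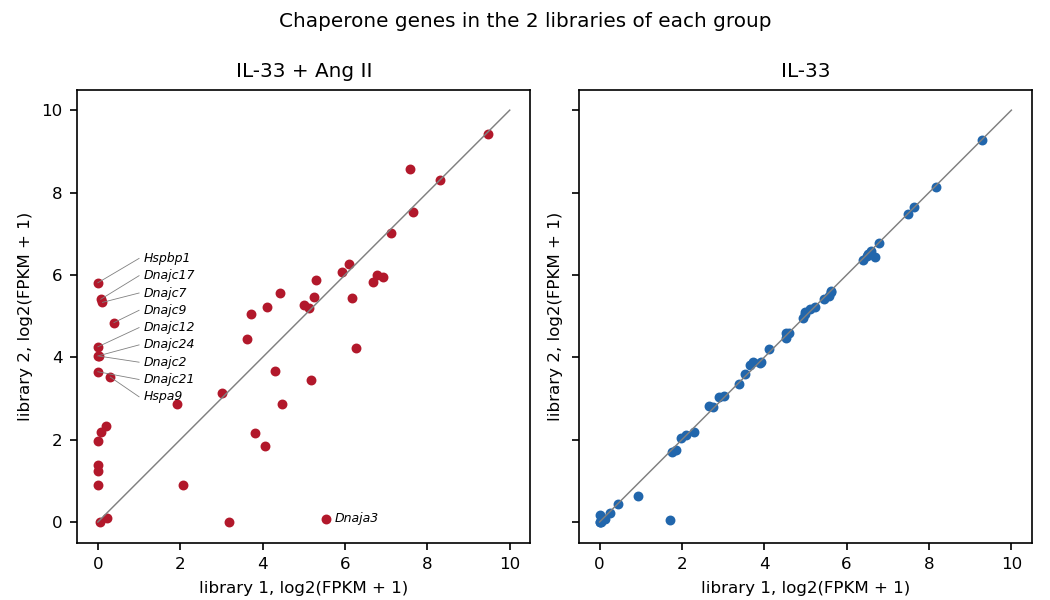
Level of the 47 tested chaperone genes in library 2 (vertical) against library 1 (horizontal), both in log2(FPKM + 1), for IL-33 plus Ang II on the left and IL-33 on the right, with the line of equal values. The labelled genes are the 10 with at least 10 FPKM in an Ang II library and under 1 FPKM in the other.

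Small heat shock proteins hold unfolded proteins without ATP, and their genes were taken here by the symbol Hspb alone. Family members with other symbols were not looked at, and the symbol was not checked against function. The 8 Hspb genes stood at or near 0. None of them reached the minimum level, and Hspb2 and Hspb3 were listed at 0 in all libraries. The highest value was that of Hspb7, at 2.15 and 0.14 FPKM in Ang II libraries, against 0.10 and 0 FPKM in IL-33 libraries. Hspb1, which encodes HSP25 in the mouse, stood at 0 FPKM in both Ang II libraries, against 0 and 0.08 FPKM in IL-33 libraries. A value of 0 here says only that the gene is listed at 0. Over all families 10 members were listed at 0 in every library, and 16 others had a value but were too low to be tested. The 10 were Hspa1l, Hspa12a, Hspa12b, Hspbap1, Hspb2, Hspb3, Dnajb3, Dnajb7, Dnajb8 and Dnajc22.

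Genes that work with these chaperones were counted by lists. Of 37 co-chaperone and folding factor genes tested, both Ang II libraries were higher for 10 and lower for 16, or 27.0% and 43.2%, against 24.4% and 33.5% of all genes tested. The median log2 fold change was -0.48, and 0 passed limma's adjusted threshold. Bag1, which encodes an exchange factor for HSP70, stood at 339 and 329.95 FPKM in Ang II libraries, against 204 and 208 FPKM in IL-33 libraries. Stip1, whose product links HSP70 to HSP90, stood at 82.0 and 102 FPKM in Ang II libraries, against 164 and 164 FPKM in IL-33 libraries. Tbca and Tbcb, which encode tubulin folding cofactors that take over from CCT, stood at 261 and 171 FPKM and at 104 and 71.0 FPKM in Ang II libraries, against 304 and 284 FPKM and 158 and 175 FPKM in IL-33 libraries. Bag1 was thus higher and Stip1, Tbca and Tbcb lower in both Ang II libraries. Of 14 genes of mitochondrial folding and quality control tested, both Ang II libraries were higher for 1 and lower for 6, or 7.14% and 42.9%, with a median of -0.71. Their most abundant member Clpp, a protease subunit, overlapped, at 124 and 22.1 FPKM with Ang II and 83.1 and 79.8 FPKM with IL-33. Grpel1, the exchange factor of mitochondrial HSP70, stood at 35.5 and 47.2 FPKM in Ang II libraries, against 56.3 and 55.0 FPKM in IL-33 libraries. It was lower in both, as was Hspa9.

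The endoplasmic reticulum chaperones, which the rule leaves out, gave 6 higher and 8 lower of 20 tested, with a median of -0.16, against shares of 24.4% and 33.5% among all genes tested. Hspa5, the HSP70 of that compartment, stood at 490.3 and 538 FPKM in Ang II libraries, against 417 and 417 FPKM in IL-33 libraries. Dnajb9, one of its J-domain partners, stood at 195 and 119 FPKM in Ang II libraries, against 11.6 and 11.3 FPKM in IL-33 libraries (log2 fold change 3.63, adjusted p = 0.240 by limma). Pdia3, a disulfide isomerase, was lower in both, at 280.4 and 520.1 FPKM with Ang II and 734 and 742 FPKM with IL-33. Immediate early genes, which also respond to handling stress, were 6 higher and 3 lower of 12 beside the same shares, and Fos stood at 221 and 242 FPKM with Ang II and 99.5 and 100.1 FPKM with IL-33. The lists' medians are set beside -0.0037 for all genes tested, and none was tested as a list.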

How the data were processed

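The authors deposited FPKM values for the genes of 4 RNA-seq libraries, as the column names of the files say. The submitters' processing notes name mm10, HISAT, StringTie and edgeR, without versions or roles. Which annotation was used is not given in the sources used here. No count model was run on FPKM, and the true depth is unknown. Columns were matched to samples by name. Coordinates and transcripts came from GENCODE release M21 (GRCm38, the assembly of mm10), with 55141 of 55401 gene models matched, and promoters from RefSeq (GRCm38.p6).

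The 9215 genes that averaged 1 FPKM or more over the fit's columns were tested on log2(FPKM + 1) with limma 3.58.1 (R 4.3.3; lmFit, eBayes with trend). Tests were two-sided and adjusted by Benjamini-Hochberg over all genes. The IL-33 libraries were averaged and counted as 1 sample, which leaves 1 residual degree of freedom and assumes that the IL-33 sample varies as the Ang II libraries do. P-values measure the spread between these libraries, which may be technical. Named members were Hsf1, the 20 most abundant, up to 10 in each direction with non-overlapping groups and at least 5 FPKM in a group, and both genes of the pairs Hspa1a and Hspa1b, and Hspd1 and Hspe1. Of each other list, up to 4 of the most abundant were named, and other genes only where a result turned on them. Hsf2, Grpel1, Dnajb9, Fos and the copies and neighbours of members were named after their values were seen. Members and lists were chosen with earlier results of these data known. Alternatives covered the pseudocount, the minimum level, the scaling, the IL-33 libraries as replicates, a replicate block and each library left out.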

Additional observations from a re-analysis of the deposited data

How the results depend on the processing

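With the IL-33 libraries as replicates, limma at adjusted p under 0.05 called 486 genes higher and 1179 lower, among them 4 members higher and 3 lower, against 0 in each case with IL-33 as 1 sample. That construction counts 2 libraries that differ by about counting noise as separate samples. With the replicate number as a block, counts were 0 for all genes and for members in each direction. The numbers are not stated to pair libraries, and deviations of same-numbered libraries correlated at -0.019 over 9215 genes, so the block is no evidence of weaker effects. No other setting with a test called a gene, including leaving out either IL-33 library (0 to 0 calls). The median log2 fold change of the members (-0.13) was 0.032 with a pseudocount of 5 FPKM, 0.021 without a minimum level and 0.11 with a minimum mean of 5 FPKM, and ran from -0.22 to 0.14 with a library left out, being 0.14 without Ang II library 1 and 0.065 without Ang II library 2, so its sign is not settled. The cause was not tested. The ratio of summed FPKM (1.09) was 1.15 on the TPM scale, 1.04 with median-ratio scaling and 1.06 to 1.12 with a library left out. For the HSP70 and HSP110 genes it was 1.07, with 1.12 on the TPM scale, 1.02 with median-ratio scaling and 0.814 without Hspa8. With median-ratio scaling, Ang II library 1 lay below both IL-33 libraries in these sums and in the HSP90 sum. At a margin of 1.5-fold the 15 higher and 15 lower members became 8 and 12. With a library left out, 15 to 25 members were higher and 15 to 23 lower, the highest counts coming without an Ang II library, when a single one has to lie outside the IL-33 values. The log2 fold change of Hsf1 (-0.42) was 0.0079 with a pseudocount of 5 FPKM. The other 32 named members kept their direction under all 10 settings that were tested with limma. With a single Ang II library left there is no test, and 6 of the 33 named members then turned. Library 1 alone gave Hsp90aa1 -0.058, Dnajb6 -0.037, Dnajc8 0.21 and Hsf1 1.17, and library 2 alone gave Hspa14 0.34 and Dnajc17 0.26. FPKM without counts limit what can be read from genes near 0.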
